A study of Mus musculus with 354 samples.

Results

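The data described here are the 10 genes of Notch signalling and of prosensory identity in single cells sorted from the organ of Corti of newborn mice with and without an active form of ERBB2. The members were chosen by name from the count tables, as the rows of *Jag1*, *Dll1*, *Notch1*, *Lfng*, *Hes1*, *Hes5*, *Hey1*, *Hey2*, *Sox2* and *Atoh1*. They are 10 of 55367 genes counted, and all 10 were among the 21416 genes tested. CA-ERBB2 pups carried the transgene TetON-CAERBB2 beside ROSA-floxed-rtTA/GFP and the driver Fgfr3-iCre. Control pups were littermates that had ROSA-floxed-rtTA/GFP and the same driver but no TetON-CAERBB2. All pups of both genotypes received tamoxifen at P0/P1 (75 mg/kg) and doxycycline at P2 (100 mg/kg), and tissue was taken at P3. Both genotypes therefore carried Cre, rtTA and GFP and had the same injections, and only the CA-ERBB2 transgene differed. Cre acted in cells that had expressed *Fgfr3*, which include Deiters, pillar and Hensen cells and some outer hair cells. Cochleae of several pups were pooled for a sort. GFP-positive single cells were sorted into plates, with 59 wells from each of 3 plates per genotype (177 cells per genotype), and the plate was taken as the replicate. The comparison asks whether activation of ERBB2 in these cells goes along with a change in Notch signalling or in *Sox2*.

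Notch signalling works between touching cells. A ligand such as Jagged1 or Delta-like1 on 1 cell binds the NOTCH1 receptor of its neighbour, the receptor is cut, and its freed intracellular part joins the DNA-binding protein RBPJ in the nucleus to switch on repressor genes of the Hes and Hey families. In the cochlea, developing hair cells express *Atoh1* and present Delta-like1 and Jagged2, and the supporting cells around them keep *Hes5*, *Hey1* and *Hey2* on and *Atoh1* off. SOX2 marks the prosensory domain from which both cell types come, and remains in supporting cells after birth.

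Wells differed in depth and in cell type. Counts per plate ranged from 108357282 to 188636940, and the median number of genes detected per well was 10198 and 8679 on the plates numbered 1 against 1742 to 2954 on the others. Fewer than 100000 counts were found in 2 CA-ERBB2 and 33 Control wells. Wells A12 to D12 of every plate had a median of 15540 genes, against 3244 in the other wells. *Fgfr3*, the gene behind the Cre line, had a count in 109 wells (30.8%) and the epithelial gene *Epcam* in 128, whereas the collagen gene *Col1a2* of connective tissue cells had a count in 250. Any of 12 pillar and Deiters cell markers was found in 59, 53 and 52 wells of the CA-ERBB2 plates. On the Control plates it was 56, 37 and 46 wells. Any of 7 mesenchyme markers was found in 59, 51 and 45 and in 57, 39 and 39 wells. The label of cochlear supporting cell was therefore not borne out by markers in every well, though a shallow well can miss a gene. *Erbb2*, whose transcripts were not told apart from those of the transgene, was at 106, 46.0 and 120 CPM (counts per 1000000 counts, scaled by the TMM factors of edgeR) on the plates with the transgene and at 19.8, 3.24 and 12.4 CPM on those without it. In sums over a plate, fewer cells of a type and less RNA per cell cannot be told apart.

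Of the 8 members found among the RefSeq promoters of GRCm38.p6, 3 held the core of the RBPJ motif, TGGGAA (on the other strand TTCCCA), within the window from 250 bases before to 50 bases after the start. These were *Hes5* and *Hey2*, which are targets of the pathway, and *Lfng*, and each held it once on each strand. Among all 32851 promoters of this length, 25.6% held the motif on either strand and 1.81% on both. These 3 promoters are shown from 250 bases before to 10 bases after the start, 5′ to 3′. Of their genes, *Hes5* and *Hey2* are read below as the output of the pathway. Capitals mark the motif, and a match of letters is not a measured binding site.
Hes5 (chr4:154960673-154960932, plus strand): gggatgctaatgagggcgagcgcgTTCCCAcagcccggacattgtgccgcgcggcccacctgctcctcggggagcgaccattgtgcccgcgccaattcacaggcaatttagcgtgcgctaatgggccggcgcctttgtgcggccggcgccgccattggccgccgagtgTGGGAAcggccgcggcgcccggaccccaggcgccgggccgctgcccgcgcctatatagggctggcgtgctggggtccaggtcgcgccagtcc
Hey2 (chr10:30842774-30843033, minus strand): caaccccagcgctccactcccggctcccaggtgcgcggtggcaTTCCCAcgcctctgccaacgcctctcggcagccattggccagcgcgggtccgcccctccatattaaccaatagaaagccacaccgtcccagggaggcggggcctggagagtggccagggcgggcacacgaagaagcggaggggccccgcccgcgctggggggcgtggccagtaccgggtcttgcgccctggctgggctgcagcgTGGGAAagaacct
Lfng (chr5:140607091-140607350, plus strand): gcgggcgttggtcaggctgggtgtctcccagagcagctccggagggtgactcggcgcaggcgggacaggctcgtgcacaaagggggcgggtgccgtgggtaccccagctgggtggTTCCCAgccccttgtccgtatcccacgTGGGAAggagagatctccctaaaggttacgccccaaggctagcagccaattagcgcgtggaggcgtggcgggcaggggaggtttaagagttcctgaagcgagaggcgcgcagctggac
In *Hes5* the 2 motifs began 226 and 82 bases before the start, in *Lfng* 135 and 108 bases before it, and in *Hey2* 207 and 3 bases before it, so that the second motif of *Hey2* spans the start. The promoters of *Sox2*, *Notch1*, *Jag1*, *Dll1* and *Atoh1* held no match in the window. The targets *Hes1* and *Hey1* were not among these promoters and were not searched.

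None of the 10 members was called in the comparison of CA-ERBB2 with Control plates. Here a gene was called at an adjusted p under 0.05 and a fold change above 2, by the quasi-likelihood test of edgeR, adjusted over 21416 genes after Benjamini and Hochberg. Only 1 gene, *Serpinb2*, passed among all genes tested (0.00467%), so the absence of a call among 10 members says little. At an unadjusted p under 0.05, 594 genes were higher (2.77%) and 512 lower (2.39%) in CA-ERBB2 cells, and *Atoh1* was the only member among them. The fitted fold changes of 7 members were below 0 and those of *Hes1*, *Hey1* and *Hey2* above it, with a median of -0.29 on the log2 scale, beside -0.02 for all genes tested. *Hes5*, at -0.04, was at 0.08 without the TMM factors.

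**Figure D1:**
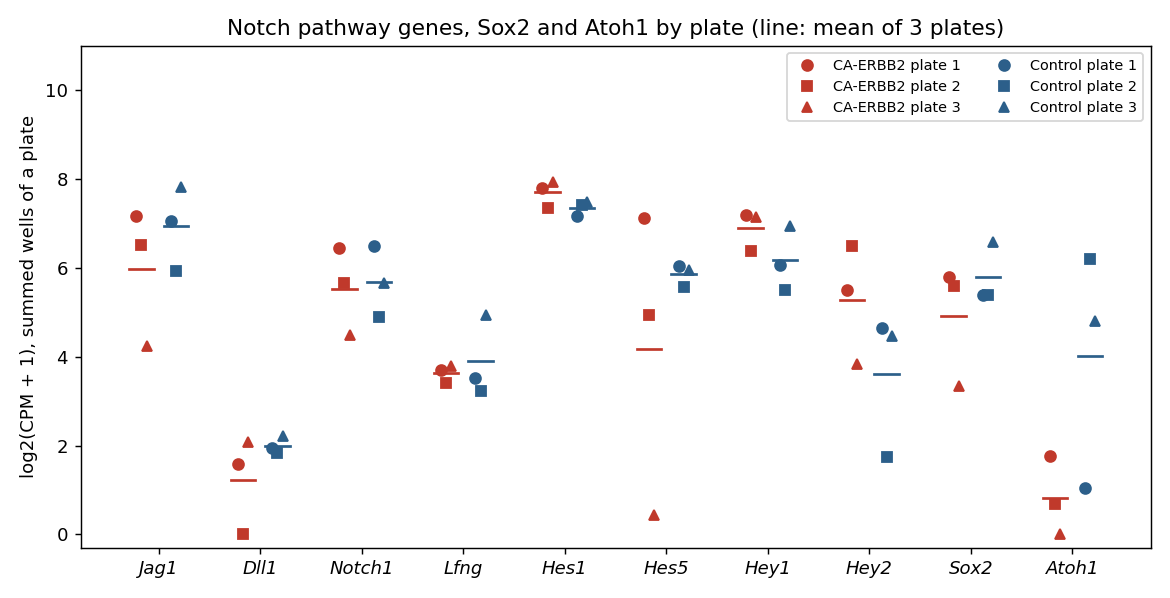
Level of each member on the 3 CA-ERBB2 and 3 Control plates, as log2(CPM + 1) of the counts summed over 59 wells (symbols: plate number, lines: means of the 3 log2 values). The plates of the genotypes overlap for all 10 genes, and CA-ERBB2 plate 3 is the lowest for *Jag1*, *Notch1*, *Hes5*, *Sox2* and *Atoh1*.

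The ligand *Jag1* (chromosome 2, 137081456 to 137116644) was at 143, 91.2 and 17.9 CPM on the CA-ERBB2 plates, in the order of their numbers as throughout, and at 132, 60.5 and 226 CPM on the Control plates. The ranges overlapped, with the lowest value on CA-ERBB2 plate 3 and the highest on Control plate 3. Its log2 fold change was -0.73 (SE 0.745, adjusted p = 0.945 in edgeR). Without CA-ERBB2 plate 1 it was -1.37, without CA-ERBB2 plate 3 it was -0.25 and without Control plate 3 it was -0.18. The other ligand among the members, *Dll1* (chromosome 17, 15367354 to 15376872), was close to its limit of detection. It was at 2.00, 0 and 3.25 CPM on the CA-ERBB2 plates and 2.86, 2.55 and 3.65 CPM on the Control plates. A count of 0 on CA-ERBB2 plate 2 allows up to 0.0275 CPM (3 counts), which covers counting error only. *Dll1* counts came from 8 CA-ERBB2 and 11 Control wells, and on every plate with counts a single well held at least 60.6% of them.

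The receptor *Notch1* (chromosome 2, 26457903 to 26516663) had 86.6, 49.95 and 21.3 CPM on the CA-ERBB2 plates and 88.9, 28.5 and 49.7 CPM on the Control plates. The means were 52.6 ± 32.7 and 55.7 ± 30.6 CPM (SD, n = 3 plates each), a difference far inside the spread of the plates. The log2 fold change of -0.08 (SE 0.666) turned to 0.31 without CA-ERBB2 plate 3 and to 0.43 without Control plate 1. *Lfng* (chromosome 5, 140607320 to 140615545), the fringe enzyme that adds sugars to NOTCH and so tunes which ligand it answers to, was at 11.9, 9.56 and 12.8 CPM against 10.53, 8.36 and 29.5 CPM. Control plate 3 alone lay apart from the other plates. The log2 fold change was -0.50 (SE 0.807), and 0.30 without Control plate 3.

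Among the targets, *Hes1* (chromosome 16, 30064384 to 30067796) was the most even, with 223, 162 and 245 CPM on the CA-ERBB2 plates and 143, 170 and 179 CPM on the Control plates (log2 fold change 0.36, SE 0.447, adjusted p = 0.958 in edgeR). *Hes1* also responds to signals other than Notch. *Hes5* (chromosome 4, 154960923 to 154962371), the target most tied to Notch in supporting cells, was at 138, 29.6 and 0.355 CPM on the CA-ERBB2 plates. On the Control plates it was at 64.7, 46.7 and 61.0 CPM. The means, 55.9 ± 72.4 and 57.5 ± 9.51 CPM (SD, n = 3 plates each), were alike while the CA-ERBB2 plates spanned the whole range of values, above and below all Control plates. The log2 fold change of -0.04 (SE 1.23) was 0.54 without CA-ERBB2 plate 3 and -1.95 without CA-ERBB2 plate 1. *Hes5* changed sign as well without CA-ERBB2 plate 2 (0.25), Control plate 1 (0.06) or Control plate 3 (0.01).

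*Hey1* (chromosome 3, 8663359 to 8667256) was at 145, 82.2 and 141 CPM against 66.1, 44.4 and 123 CPM, with Control plate 3 inside the range of the CA-ERBB2 plates. Its log2 fold change was 0.66 (SE 0.544, adjusted p = 0.929 in edgeR). *Hey2* (chromosome 10, 30832359 to 30842801), a Hey factor known in the cochlea from pillar cells, where its expression can outlast Notch activity, had the largest positive fold change of the members. It was at 44.4, 89.2 and 13.3 CPM on the CA-ERBB2 plates, and 24.0, 2.34 and 21.3 CPM on the Control plates. CA-ERBB2 plates 1 and 2 were above every Control plate and CA-ERBB2 plate 3 was not. The log2 fold change was 1.63 (SE 0.934, adjusted p = 0.914 in edgeR), 2.10 without CA-ERBB2 plate 3 and 0.86 without CA-ERBB2 plate 2. Of the Control plates, plate 2 was the lowest, and without it the log2 fold change was 1.10.

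*Sox2* (chromosome 3, 34650405 to 34652461) was at 54.4, 47.2 and 9.11 CPM on the CA-ERBB2 plates. The Control plates had 41.1, 40.7 and 95.02 CPM. The first plates of each genotype lay close together, and the distance between the means, 36.9 ± 24.3 and 58.9 ± 31.3 CPM (SD, n = 3 plates each), came from a low CA-ERBB2 plate 3 and a high Control plate 3. The log2 fold change of -0.68 (SE 0.724, adjusted p = 0.947 in edgeR) was -0.21 without CA-ERBB2 plate 3 and -0.13 without Control plate 3. On Control plate 3, 39.1% of the *Sox2* counts came from 1 well.

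*Atoh1* (chromosome 6, 64729125 to 64731245), the transcription factor that starts hair cell differentiation, differed most. It was at 2.39, 0.595 and 0 CPM on the CA-ERBB2 plates and at 1.06, 73.0 and 26.8 CPM on the Control plates, so that Control plate 1 lay among the CA-ERBB2 plates. The log2 fold change was -5.07 (SE 1.87) with an adjusted p of 0.911 (edgeR, unadjusted 0.0210). Leaving out a plate gave -6.82 (CA-ERBB2 plate 1 left out) to -3.81 (Control plate 2 left out), and with plate 2 of either genotype left out the unadjusted p was no longer under 0.05. DESeq2 on the same sums gave an adjusted p of 0.0527, and edgeR without a filter on low counts gave 0.0342. When every cell had the same weight, the difference of the mean log2(CPM + 1) was -0.25, and limma's adjusted p was 1. Few wells carried these counts: 8 CA-ERBB2 and 11 Control wells had an *Atoh1* count and 2 wells held 82.9% of the counts on Control plate 2. The 16 hair cell genes summed to 495, 494 and 630 CPM on the CA-ERBB2 plates and to 261, 2169 and 1318 CPM on the Control plates, in which Control plates 2 and 3 were again the highest. The part of the number of hair cells per plate in the *Atoh1* difference was not tested.

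Per kilobase of exon, which allows genes to be set against each other, *Hes1* was the highest of the members at 91.8 ± 19.1 CPM per kb (SD over all 6 plates). It was followed by *Hes5* at 41.6 ± 33.9, *Hey1* at 30.7 ± 12.9, *Sox2* at 23.3 ± 13.5 and *Jag1* at 19.2 ± 12.5 CPM per kb. *Atoh1* (8.16 ± 13.7), *Hey2* (7.05 ± 6.77), *Lfng* (5.50 ± 3.14), *Notch1* (3.81 ± 2.00) and *Dll1* (0.565 ± 0.308 CPM per kb) were lower. Only *Notch1* and *Dll1*, among neighbours in this order, had ranges that did not overlap across plates. The order differed between genotypes, with *Atoh1* at 0.469 ± 0.587 CPM per kb on the CA-ERBB2 plates and 15.8 ± 17.2 on the Control plates, and *Hey2* at 10.7 ± 8.31 and 3.45 ± 2.56 (SD, n = 3 plates each), below *Notch1* at 3.91 ± 2.15 on the latter. *Hes1* exceeded *Hes5* on 6 of 6 plates, and *Atoh1* exceeded *Hey2* on 2 of 6. The lengths are those of the Gencode M21 exons. In that annotation, 7.50% of the exon bases of *Notch1* lie opposite the noncoding gene *0610009E02Rik* and 31.8% of those of *Hes5* opposite *Gm20421*. These antisense genes had 29.4% and 32.1% as many counts as *Notch1* and *Hes5*, in 117 and 50 wells, of which 116 and 49 also had the member. The authors counted with a reverse strand setting, but whether the libraries keep the strand is not given in the sources used here. If they do not, reads of these genes and of the members cannot be told apart.

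The wider pathway was described with 7 lists of 48 genes, all tested (receptors, ligands, fringe and ligand ubiquitin ligases, receptor processing, nuclear complex, targets, modulators). None was called, and at an unadjusted p under 0.05, 0 were higher and 3 were lower, beside 2.77% and 2.39% of all genes. The median log2 fold change was -0.52. The median was -0.10 for the 4 receptors, -1.76 for the 5 ligands and 0.51 for the 6 targets. Without the TMM factors the median of all genes moved from -0.02 to -0.27, so medians of this size depend on the scaling. Those 3 lower genes were *Dll3*, *Mfng* and *Maml2*. *Dll3*, a ligand known to act within the cell, was at 2.55, 0.137 and 0.299 CPM on the CA-ERBB2 plates against 10.7, 31.4 and 14.1 CPM, without overlap (log2 fold change -4.23, SE 1.32). *Mfng*, a fringe gene, was at 4.67, 1.54 and 0.377 CPM against 1.49, 65.6 and 42.2 CPM, with Control plates 2 and 3 the highest as for *Atoh1* (log2 fold change -4.05, SE 1.35). *Maml2*, a coactivator of the nuclear complex, had 28.2, 9.88 and 4.92 CPM against 33.5, 14.7 and 215 CPM (log2 fold change -2.61, SE 1.03). Plates did not overlap, with CA-ERBB2 lower, for 3 of the 48 genes (*Dll3*, *Poglut1* and *Itch*), as for 4.88% of all genes, and with CA-ERBB2 higher for 0 of them, as for 4.20% of all genes. Summed over a list, the 9 modulators were at 137.5 to 180 CPM on the CA-ERBB2 plates and 218 to 284 CPM on the Control plates, and the 6 genes of the nuclear complex at 84.9 to 171 and 186 to 343 CPM, both without overlap. Without the TMM factors the plates overlapped for both sums, and the sums of the other 5 Notch lists overlapped with them. DESeq2 called *Dll3* and *Mfng* (adjusted p of 0.00908 and 0.0429), among 233 genes that it called of 21416 tested.

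Prosensory identity was described with 13 transcription factors of prosensory and supporting cells, of which 0 were called or passed an unadjusted p of 0.05, with a median log2 fold change of -0.30, and DESeq2 called none of them. Of 16 hair cell genes 4 were lower at an unadjusted p under 0.05 (*Atoh1*, *Hes6*, *Ccer2* and *Pcp4*), as were 2.39% of all genes tested, and 0 were higher. Their median was -1.83, and the plates of the genotypes overlapped for all 16. *Ccer2* was at 61.4, 82.8 and 45.9 CPM against 15.2, 568 and 234 CPM, with Control plate 1 the lowest. *Hes6*, which ATOH1 is known to switch on, was at 28.5, 1.41 and 4.09 CPM on the CA-ERBB2 plates and at 23.3, 155 and 60.9 CPM on the Control plates. The 12 pillar and Deiters cell markers had a median of 0.16, with *Npy* lower at an unadjusted p under 0.05. The 5 Hensen cell markers had a median of 0.02 and went both ways. *Nupr1* was lower at an unadjusted p under 0.05, at 17.2, 29.5 and 15.7 CPM against 64.6, 69.35 and 72.7 CPM. *Egfl6* was higher, at 70.3, 24.1 and 24.0 CPM against 19.4, 0.042 and 23.8 CPM. Plates overlapped for neither gene, as for 4.88% of all genes (CA-ERBB2 lower) and 4.20% (higher). Of the marker lists of other cells, the 8 blood and vessel markers summed to 177 to 642 CPM on the CA-ERBB2 plates and 2909 to 5162 CPM on the Control plates, without overlap. The 7 mesenchyme markers (3624 to 4751 and 3517 to 5285 CPM) and the 5 epithelial markers (599 to 1175 and 415 to 869 CPM) overlapped. Every gene of these 3 lists had counts. Their part in the members' values was not tested.

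Detection, the share of a plate's wells with at least 1 count of a gene, followed the plate more than the genotype. *Notch1* was detected in 52, 21 and 17 of 59 wells of the CA-ERBB2 plates, and in 45, 16 and 25 wells of the Control plates. *Sox2* was detected in 28, 11 and 7 wells and in 22, 13 and 14 wells, and *Hes5* in 23, 8 and 1 wells and in 11, 5 and 12 wells. The plates numbered 1 had the highest share in both genotypes for *Notch1*, *Jag1*, *Hes1*, *Hey1*, *Hey2* and *Sox2*. The largest difference between genotypes was that of *Hes1*, 57.1 ± 24.0% against 45.8 ± 20.6% of wells (SD over 3 plates), with p = 0.5 in an exact permutation test, two-sided. For the other 9 members the exact permutation p lay between 0.7 and 1, where 0.1 is the smallest that 3 plates against 3 allow. Over wells with at least 100000 counts, each thinned to 100000, the *Hes1* shares were 51.9 ± 21.2% and 51.9 ± 9.78% (SD over 3 plates). In all, *Sox2* was found in 46 of 177 CA-ERBB2 wells (26.0%, 95% exact binomial interval 19.7 to 33.1%) and 49 of 177 Control wells (27.7%, interval 21.2 to 34.9%), intervals that cover counting error only.

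**Figure D2:**
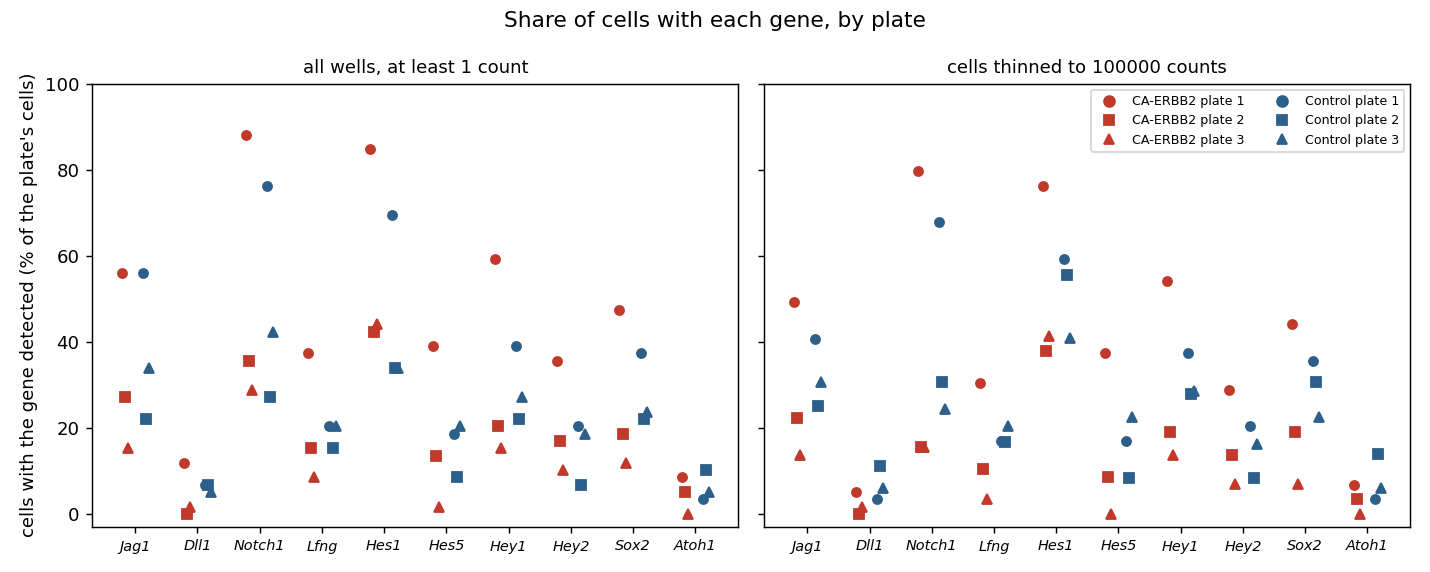
Share of cells with each gene by plate, over all 59 wells of a plate (left) and over the cells with at least 100000 counts after thinning each to 100000 counts (right). The plates numbered 1 stand above the others for most genes on both sides, and the symbols of the genotypes mix.

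The members with a higher mean share in CA-ERBB2 cells numbered 6 of 10. With every cell thinned to 100000 counts and shallower wells left out it was 1 of 10 (*Hey2*), with differences from -6.22 percentage points for *Sox2* to 1.501 for *Hey2*. Leaving out CA-ERBB2 plate 1 gave 0 of 10, leaving out CA-ERBB2 plate 3 gave 9, and leaving out Control plate 2 gave 3.

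Genes were then read together in the same cell. Any of *Hes1*, *Hes5*, *Hey1* and *Hey2* was detected in 52, 26 and 27 wells of the CA-ERBB2 plates and in 43, 25 and 24 wells of the Control plates (59.3 ± 24.97% and 52.0 ± 18.1%, SD over 3 plates), with p = 0.5 in the exact permutation test. After thinning the shares were 54.7 ± 23.1% and 57.7 ± 11.1%. A target together with *Notch1* was detected in 47, 14 and 17 wells and in 35, 11 and 18 wells (exact permutation test, p = 0.7). *Jag1* or *Dll1* was detected in 36, 16 and 10 wells and in 34, 14 and 22 wells (exact permutation test, p = 0.8). *Sox2* without any of the 4 targets was rare, in 4, 1 and 1 wells and in 4, 2 and 1 wells (exact permutation test, p = 1).

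Clustering of the 319 cells with at least 100000 counts, made without the members and the other genes of the Notch lists, gave 5 clusters, and 1 of them held over 50% of the counts of 8 of the 10 members. Cluster 3 had 69 cells (33 CA-ERBB2 and 36 Control), 49 of them outside wells A12 to D12, and a median of 12041 genes per cell. Its epithelial markers summed to a mean of 2022 CPM and its mesenchyme markers to 1945 CPM. In cluster 2 these sums were 101 and 9608 CPM. Cluster 3 held 26.7% of all counts, but 99.99% of those of *Atoh1*, 87.2% of *Hes5*, 76.4% of *Hey2*, 70.6% of *Lfng*, 64.1% of *Sox2*, 63.2% of *Hey1* and 62.2% of *Jag1*. For *Notch1* the share was 50.4%, for *Dll1* 47.7% and for *Hes1* 35.8%. All 12 pillar and Deiters cell markers were found in at least 10% of its cells. So were all 16 hair cell genes, all 5 Hensen cell markers, all 7 mesenchyme markers and all 8 blood and vessel markers. Of its 10 leading genes by fold, 3 were hair cell genes (*Pou4f3*, *Ccer2*, *Atoh1*) and 0 were of the pillar and Deiters list. It is therefore given no cell type name.

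**Figure D3:**
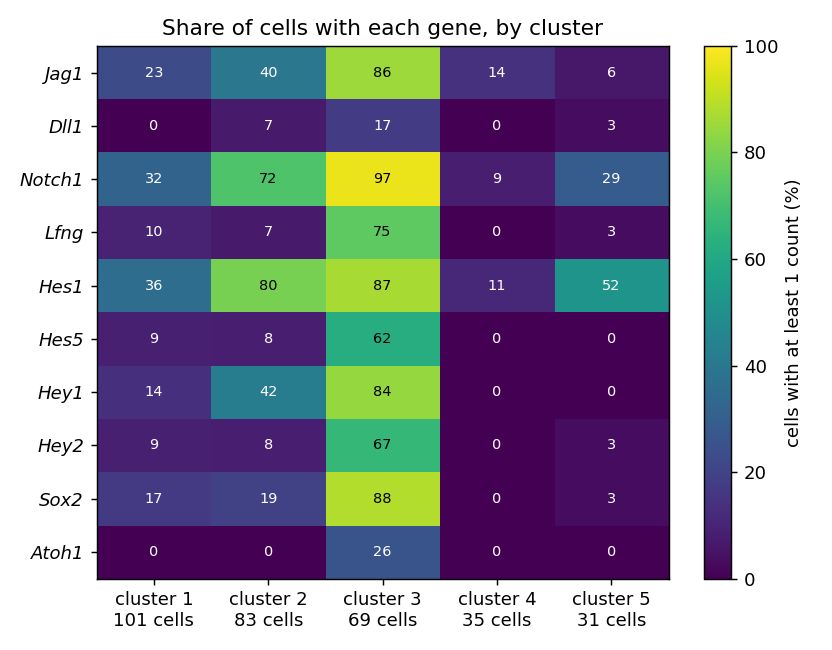
Share of cells with at least 1 count of each member in the 5 clusters, in percent. *Sox2*, *Lfng*, *Hes5*, *Hey2* and *Atoh1* were found mainly in cluster 3, while *Hes1* and *Notch1* were also found in most cells of cluster 2.

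*Sox2* was detected in 61 of the 69 cells of cluster 3 (88.4%) and in 16.8%, 19.3%, 0% and 3.23% of the cells of clusters 1, 2, 4 and 5. Outside wells A12 to D12 it was detected in 42 of 49 cells of cluster 3 (85.7%). The 4 targets differed in how far they kept to cluster 3. *Hes5* was detected in 62.3% of its cells and at most 8.91% of any other cluster, and *Hey2* in 66.7% and at most 8.91%. *Hey1* reached 42.2% of cluster 2 beside 84.1% of cluster 3, and *Hes1* 79.5% beside 87.0%. *Notch1* was detected in 97.1% of cluster 3 and 72.3% of cluster 2. Cells of cluster 1 (median 2159 genes) and cluster 4 (592 genes) had fewer genes detected than cluster 3, and after thinning every cell to 100000 counts *Sox2* was detected in 81.2% of cluster 3 and 12.9% of cluster 1. Cluster 5 (31 cells, 29 of them CA-ERBB2, median 3110 genes) led in the genes *Spp1*, *Timp1*, *Mmp9* and *Dmp1*, at a summed mean of 212400 CPM. In it *Hes1* was detected in 16 cells (51.6%), *Notch1* in 9, *Jag1* in 2, *Sox2*, *Lfng* and *Hey2* in 1 each, and *Hes5*, *Hey1* and *Atoh1* in 0 of 31 cells.

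The number of cluster 3 cells differed between plates. It was 22, 7 and 4 on the CA-ERBB2 plates and 16, 11 and 9 on the Control plates. CA-ERBB2 plate 3, with the fewest, was also the lowest plate for *Sox2*, *Jag1*, *Notch1* and *Hes5*, though not for *Hes1* or *Hey1*. The part of the number of these cells in the plate sums was not tested. Within cluster 3, over the plates with at least 5 of its cells (CA-ERBB2 plate 3 was dropped), *Sox2* was at 171 and 157 CPM on the remaining CA-ERBB2 plates and at 118, 23.6 and 162 CPM on the Control plates. The ranges overlapped, and the log2 fold change was 0.70 (SE 0.716), where over all wells of every plate it was negative. These fold changes come from unlike sets of plates. In the 4 cluster 3 cells of the dropped plate, *Sox2* averaged 41.1 CPM per cell, against 175.5 and 120.7 CPM on the other CA-ERBB2 plates. On the Control plates this mean was 125.1, 26.4 and 167.2 CPM. In the 4 cluster 3 cells of CA-ERBB2 plate 3, *Hes5* was detected in 0, and *Jag1* averaged 18.5 and *Notch1* 34.7 CPM per cell. The means of the other CA-ERBB2 plates were 453 and 203 CPM for *Jag1* and 174 and 71.0 CPM for *Notch1*. For *Hes5* they were 441 and 39.6 CPM. The fold changes that follow leave that plate out. Summed by plate, *Hes5* was at 426 and 49.3 CPM against 275, 102 and 139 CPM (log2 fold change 0.47, SE 0.846). *Hes1*, *Notch1* and *Jag1* gave 0.09, 0.04 and 0.47. *Hey2* was at 144 and 191 CPM against 98.8, 6.92 and 58.8 CPM, without overlap as for 10.3% of genes tested in this cluster (log2 fold change 1.61, SE 0.900), and *Erbb2* at 279 and 109 CPM against 38.5, 8.75 and 15.0 CPM. *Atoh1* was at 7.75 and 3.55 CPM against 4.56, 217 and 102 CPM (log2 fold change -4.25, SE 1.48), and was the only member at an unadjusted p under 0.05, where 1.70% of 20516 genes were lower. No gene of any kind was called in cluster 3 (edgeR, adjusted p of the members 1.00), with 487 genes higher and 349 lower at an unadjusted p under 0.05. These values include wells A12 to D12, without which too few CA-ERBB2 plates were left for a fit.

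**Figure D4:**
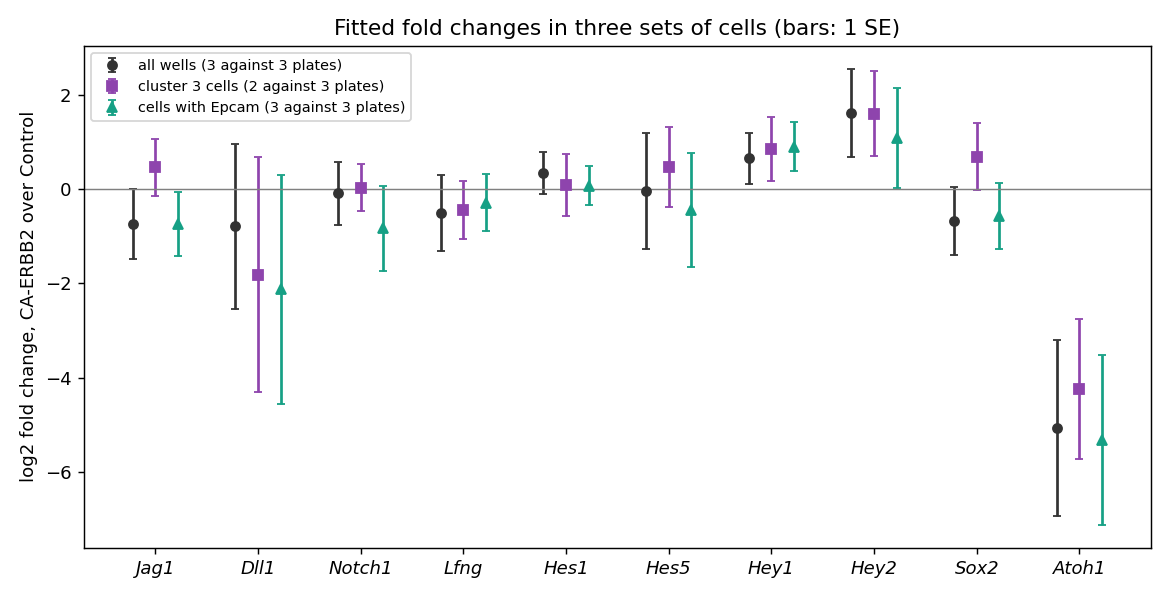
Log2 fold change of each member, CA-ERBB2 over Control, with 1 SE, over all wells, over cluster 3 (2 CA-ERBB2 and 3 Control plates) and over 113 cells with *Epcam*. *Hes1*, *Hey1* and *Hey2* lie above 0 and *Lfng*, *Dll1* and *Atoh1* below 0 in all 3 sets, while *Sox2*, *Jag1*, *Notch1* and *Hes5* change sides.

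A second way to hold the cell type, chosen after the data had been seen, kept cells with at least 100000 counts and *Epcam* at 10 CPM or more (31, 17 and 15 CA-ERBB2 and 17, 13 and 20 Control cells). There *Hes1* was nearly level, at 192, 244 and 265 CPM against 241, 208 and 214 CPM (log2 fold change 0.08, SE 0.411). *Hey1* was at 251, 207 and 416 CPM against 205, 81.9 and 182 CPM, with the lowest CA-ERBB2 plate just above the highest Control plate, as for 5.54% of the genes tested in these cells (log2 fold change 0.90, SE 0.522, adjusted p = 0.839 in edgeR). *Sox2* gave -0.57 (SE 0.692), *Hey2* 1.09 (SE 1.06) and *Atoh1* -5.32 (SE 1.80). None of the 18745 genes tested was called in edgeR, with 636 higher and 474 lower at an unadjusted p under 0.05.

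*Atoh1* and *Hes5* were then read in the same wells. Of the 19 wells with *Atoh1*, 9 were among wells A12 to D12, and *Hes5* had a count in all 9. In the other 10 wells, *Hes5* was at 0 in 8, *Hey2* in 8 and *Hes1* in 6, while *Pou4f3*, a hair cell transcription factor, had a count in 8. Over all ordinary wells with at least 100000 counts, which include cells of every cluster, *Hes5* was found in 43 of 295 (14.6%). Among the 9 of them with *Atoh1*, all in cluster 3, it was found in 2 (22.2%). These shares come from unlike mixes of cells, and cells of cluster 3 alone are compared below. Those 10 wells were 3 CA-ERBB2 and 7 Control wells, and 1 of the 8 wells without *Hes5* had only 11344 counts. The 3 wells with the most *Atoh1* were all Control wells, at 1231, 596 and 487 CPM, and all 3 had *Dll1* (61.6, 6.01 and 68.0 CPM), *Jag2*, *Hes6* and *Ccer2* and no *Hes5*, *Hes1* or *Hey2*. The only ordinary well with *Atoh1* and high *Hes5* was a CA-ERBB2 well with 35.6 CPM of *Atoh1* and 275 CPM of *Hes5*, which had *Sox2*, *Hey1*, *Hey2* and *Jag1* and no *Pou4f3* or *Ccer2*.

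**Figure D5:**
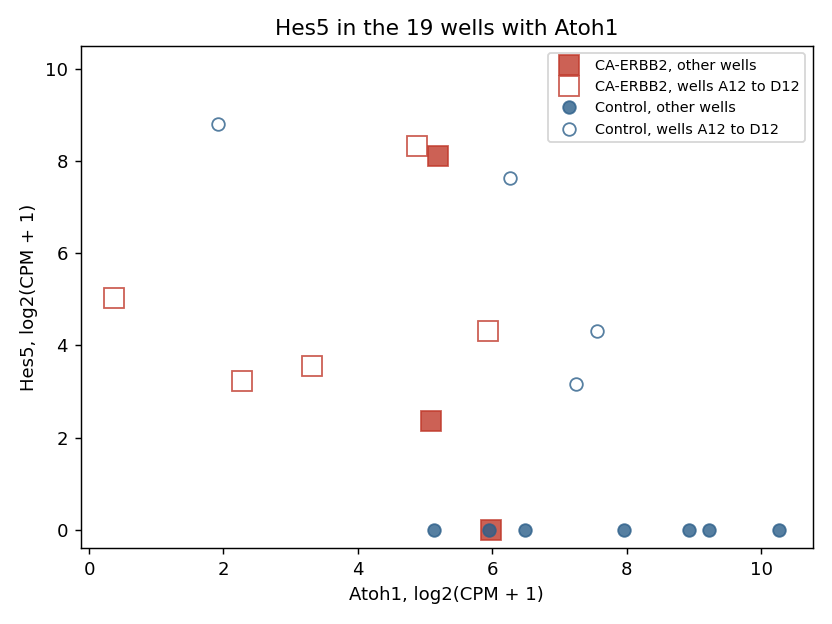
*Hes5* against *Atoh1*, both as log2(CPM + 1), in the 19 wells with an *Atoh1* count (squares: CA-ERBB2, circles: Control, open: wells A12 to D12). All open symbols lie above 0 for *Hes5*, and 8 of the 10 filled symbols lie at 0.

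Within cluster 3 and without wells A12 to D12, 9 cells had *Atoh1* and 40 did not, with similar medians of genes detected (10680 and 11440). *Hes5* was detected in 2 of 9 and 27 of 40 of these cells, *Hey2* in 2 of 9 and 28 of 40, *Hes1* in 4 of 9 and 36 of 40, and *Sox2* in 6 of 9 and 36 of 40. In the other direction, *Dll1* was detected in 5 of 9 and 1 of 40, *Jag2* in 7 of 9 and 11 of 40, and *Mfng* in 8 of 9 and 2 of 40. The median *Jag1* level was 14.7 CPM with *Atoh1* and 445 CPM without it, and that of *Notch1* 11.1 and 176 CPM. These cells share plates and are not replicates, so the counts are a description.

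Across the deeper cells, within plates, *Sox2* and *Lfng* had the highest rank correlation of any pair of the 6 members detected in at least 20% of these cells (Spearman's rho of 0.66, averaged over 6 plates). *Jag1* and *Hey1* followed at 0.60, and the pair of *Sox2* and *Hes1* was the lowest at 0.34. Each of the 6 also rose with the number of genes detected in the cell (rho between 0.47 and 0.60), which cells of a plate share as a source of likeness. Over 10457 genes detected in at least 10% of the cells of every plate, the genes most like *Jag1* were *Slitrk6* (0.66), *Cyp26b1* (0.66) and *Dpp4* (0.66), and *Slitrk6* was also the most like *Lfng* (0.77). Those most like *Sox2* were *C130071C03Rik* (0.72), *Gm44238* (0.71) and *Lockd* (0.71), and those most like *Hes1* were *Nav2* (0.48), *Fkbp9* (0.47) and *Emid1* (0.47). For *Notch1* they were *0610009E02Rik* (0.77) and *Gm13568* (0.75), the genes that lie opposite its exons, and then *Schip1* (0.57). For *Hey1* they were *Uchl1os*, *Dpp4* and *Siah1a* (0.66 each).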

How the data were processed

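Full-length cDNA of 177 sorted cells per genotype was sequenced, 1 library per well. The authors used bcl2fastq 2.19.1, STAR 2.7.6a on GRCm38 with the Gencode M25 annotation, and featureCounts of Subread 2.0.1 on exons, and deposited raw read counts per gene for each cell. Here counts were summed over the 59 wells of a plate, filtered by filterByExpr, scaled by TMM and tested with edgeR 4.0.16 (quasi-likelihood, Benjamini-Hochberg). Cells came from independent sorts of pooled pups, but the labels do not tie plates to sorts or litters, so p-values measure the spread between plates. DESeq2 1.42.0, limma 3.58.1 (cells weighted equally), other scalings, no filter and leaving out each plate were alternatives. The scripts were tested on simulated data. Shares of wells were compared by two-sided exact permutation tests over plates. Intervals cover counting error only. Cells with at least 100000 counts were clustered with Seurat 5.3.0 (2000 variable genes without members and Notch lists, 30 components, resolution 0.6). Doublets were not called in these sorted wells. Cluster 3 was not named because hair cell genes, and no pillar or Deiters markers, were among its 10 leading genes. Named genes were the members, list genes at an unadjusted p under 0.05, the 2 with the largest fold among list genes without overlap of plates, and the 3 genes most like each member. *Stmn2*, *Epyc*, *Twist1* and some blood and vessel genes also met this rule and are not described singly. The lists of greater epithelial ridge, inner phalangeal, and glia and melanocyte markers are not described. The members and lists were chosen with earlier results of these data known.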

Additional observations from a re-analysis of the deposited data

How the results depend on the processing

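Of 405 alternative values, 333 were counted as the same and 53 changed direction. Fold changes counted as the same kept their direction and side of the threshold, shares did not change direction, and counts stayed near the reported count. Blocking by plate number cannot change a difference in share, so those values agree by construction. Genes called numbered 1 in the comparison as reported, 233 with DESeq2, 285 without a filter on low counts, 0 with cells weighted equally (132 higher and 56 lower at an unadjusted p under 0.05 in limma) and 0 to 2 leaving out a plate (0 without Control plate 1 or 3, 2 without CA-ERBB2 plate 1). Members called numbered 0, or 1 (*Atoh1*) without the filter. Genes of all lists called numbered 0, 9 with DESeq2 and 10 without the filter, and Notch list genes 2 with DESeq2. *Notch1* changed direction with a filter on cells (0.13) and with equal weights (0.0079), and lay between -0.66 and 0.43 leaving out a plate. *Hes5* did so without TMM factors (0.077), without wells A12 to D12 (0.038) and with equal weights (0.16), and lay between -1.95 and 0.54, and *Lfng* between -0.82 and 0.30. The cause was not tested. The members with a higher share of cells in CA-ERBB2 numbered 6, 1 after thinning, 2 with the filter on cells and 0 to 9 leaving out a plate, and the 7 cell states 4, 1, 2 and 1 to 7. Differences in share, in percentage points, turned after thinning for *Notch1* (-4.05), *Lfng* (-3.24), *Hes1* (-0.0375), *Hes5* (-0.608), *Hey1* (-2.21), any target (-3.03) and *Atoh1* with *Hes5* (-0.115). With the filter on cells they turned for *Notch1* (-4.06), *Lfng* (-3.41), *Hes5* (-1.45), *Hey1* (-3.69) and any target (-3.26), and at 10 CPM for *Lfng* (-2.26). Leaving out a plate they ranged from -12.4 to 5.37 for *Sox2*, -16.4 to 16.1 for *Notch1*, -16.1 to 4.802 for *Jag1*, -5.37 to 0.565 for *Dll1*, -6.78 to 7.63 for *Lfng*, -2.54 to 23.2 for *Hes1*, -8.19 to 10.45 for *Hes5*, -11.6 to 10.45 for *Hey1*, -1.695 to 11.02 for *Hey2* and -3.67 to 0.565 for *Atoh1*. For the states the ranges were -7.06 to 17.8 (any target), -17.5 to 4.52 (*Jag1* or *Dll1*), -9.89 to 19.5 (a target with *Notch1*) and -2.26 to 0.8475 (*Sox2* without a target). Plates of the same number deviated together with r of 0.215, 0.0822 and 0.0773 over genes, and each correlated best with its own number. The plates numbered 1 also held 33 and 34 cells of cluster 2, against 4 on every other plate. This is a hint from the data and not the design. The labels do not pair the plates, so the unpaired test was kept, and whether they are paired was not settled. With the plate number as a block 1 gene was called, 426 were higher and 361 lower at an unadjusted p under 0.05, and no member was called. In cluster 3 the block left 0 called and turned *Lfng* (0.084) and *Hes5* (-0.21). There *Atoh1* (-2.55) was no longer at an unadjusted p under 0.05 under the block, *Hey1* (1.41) was, and *Sox2* moved from 0.70 to 1.63. Over all wells *Atoh1* (-6.61) was not under 0.05 either, and *Hes5* moved to -1.43. Tests in cluster 3 at resolution 0.2 or without wells A12 to D12 could not be fitted, since fewer than 2 CA-ERBB2 plates kept 5 cells.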
